A study of Rattus norvegicus with 60 samples.

Results

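The early growth response genes Egr1, Egr2 and Egr3, the nuclear receptor genes Nr4a1, Nr4a2 and Nr4a3 and the immediate early response genes Ier2 and Ier3 were followed over 48 h after a blunt injury of rat skeletal muscle. These 8 genes were taken by name, with earlier results of these data known, and they are 8 of the 20662 genes of the count table. All 8 had a total of at least 5 reads and were among the 17155 genes tested. At 4 h after injury all 8 were higher than in uninjured muscle, by 3.05-fold (Nr4a2) to 225-fold (Nr4a3). The genes then parted: at 8 h 6 were called higher, all but Nr4a1 and Nr4a2. Nr4a3 was still above the control at 24 h, while most of the others were no longer called from 12 h. Nr4a1 was below the control from 12 h to 48 h.

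Immediate early genes are transcribed within minutes of a stimulus, because the factors that switch them on are already present in the resting cell. Growth factor and stress signals reach many of them through serum response factor, which binds the CArG box, and calcium and cyclic AMP signals reach them through the factors that bind the cAMP response element. The EGR proteins are zinc finger factors that bind GC-rich sites, and the NR4A proteins are orphan nuclear receptors that act without a known natural ligand. In muscle, EGR3 is known for its part in forming the stretch receptors called muscle spindles, and NR4A1 and NR4A3 for their link to the response to exercise and to glucose and fat metabolism.

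RNA of hind limb muscle from young male Sprague-Dawley rats was sequenced, with 1 library for each rat. Control rats carried no injury (6 libraries), and injured rats were killed at 4 h (7 libraries), 8 h (8), 12 h (8), 16 h (8), 20 h (7), 24 h (8) or 48 h (8) after a weight had been dropped on the right hind limb. The injured rats had been anaesthetized with chloral hydrate and their limb depilated, while the control rats were killed with the same agent without these steps, so that the injury and its handling cannot be told apart. The controls were not matched to each time of day, so that hours after injury and hours of the day cannot be told apart either. The labels name no further treatment, and the model is limited to whole muscle from the struck site, in which fibers, vessels, nerves and arriving blood cells are mixed. In such bulk tissue, fewer cells of a type and less RNA per cell cannot be told apart.

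The group of each count column was taken from its position in the table, because the column headings name other libraries than the values do. For 49 named libraries of the study, normalized values of 1288 genes from its supplement could be set against every column, and each of the 49 matched 1 column of its own, at 99.7% or more of the genes with a read in it, while the next best column reached 3.89% at most. In all 49 the name of the matched library gave the group that the position gave, whereas only 9 of these columns had a heading of that group. The other 11 columns rested on position alone, 6 of them at 48 h, 2 at 12 h and 1 each at 4 h, 8 h and 20 h. The study removed samples it called abnormal before its own analysis, whereas all 60 columns are used here. The numbers of libraries it kept equal those of the matched columns in every group but 48 h. The unmatched columns outside 48 h may therefore be libraries that the study removed, which the labels do not say. Every time given here therefore follows the positions, and replicate numbers only name a column within its group. Grouping by the headings was kept as an alternative and changed most of the counts and calls.

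**Figure D1:**
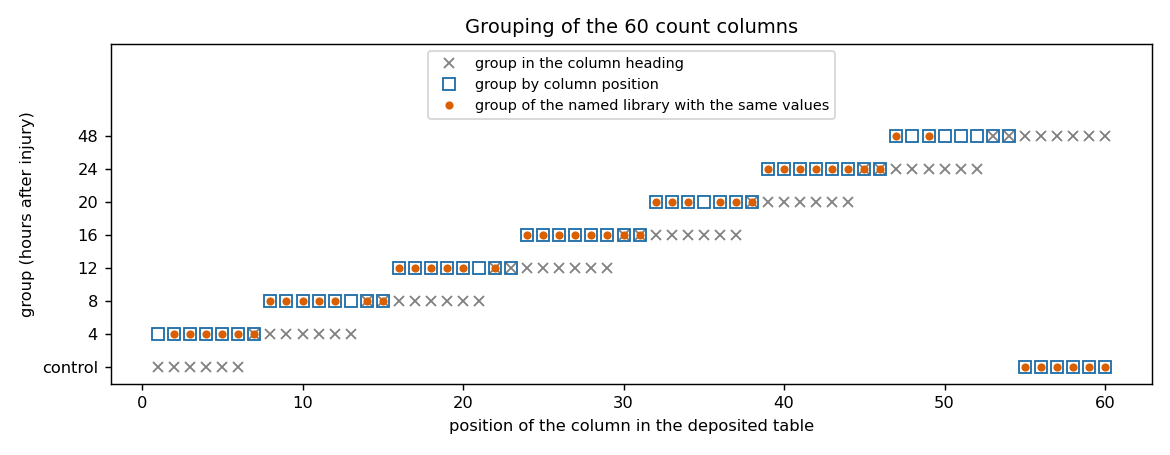
The horizontal axis is the position of each of the 60 count columns in the deposited table, and the vertical axis is the group in hours after injury. Crosses give the group in the heading, open squares the group by position and filled points the group of the named library with the same values. All 49 filled points lie in an open square, and 9 of them have a cross.

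Column totals ran from 16372673 to 34931323 reads and fell into 24 columns of at most 22212933 and 36 of at least 27140720, with 3 columns of the lower set in every group. Values are given as CPM, read counts scaled to a common library total by trimmed means of M values (TMM). Although the labels' extraction text speaks of retinas, the retina marker Crx had no read in any library, while the 5 measured muscle fiber markers summed to at least 100200 CPM in every control. These levels are those of muscle, the source the labels name. Gnat1, another marker of that list, reached 6.04 CPM at most. Myh4 and Myh1 of the fiber list were not analysed here.

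Promoter stretches are shown because all members were higher together at 4 h, and early genes are known for the response elements there. Promoters of 5 of the 8 genes could be matched in the table of RefSeq promoters (GRCr8 assembly) used here, and the 250 bases before the start of transcription are printed 5′ to 3′ on the strand of the gene. Capitals mark the CArG box, taken as CC, 6 bases of A or T and GG with no mismatch allowed. They also mark the cAMP response element TGACGTCA and its shorter form CGTCA, and all were searched on both strands. A short form can lie within the full element.
Egr1 promoter: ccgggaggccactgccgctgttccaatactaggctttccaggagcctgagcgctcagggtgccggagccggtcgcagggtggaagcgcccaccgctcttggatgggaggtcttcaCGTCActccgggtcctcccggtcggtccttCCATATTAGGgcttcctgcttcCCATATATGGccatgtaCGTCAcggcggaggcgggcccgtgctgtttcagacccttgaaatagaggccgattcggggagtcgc
Egr2 promoter: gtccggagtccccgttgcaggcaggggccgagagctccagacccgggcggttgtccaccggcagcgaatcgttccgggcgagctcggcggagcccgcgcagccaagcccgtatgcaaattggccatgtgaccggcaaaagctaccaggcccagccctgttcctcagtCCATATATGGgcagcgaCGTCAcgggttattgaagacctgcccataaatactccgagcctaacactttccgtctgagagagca
Nr4a1 promoter: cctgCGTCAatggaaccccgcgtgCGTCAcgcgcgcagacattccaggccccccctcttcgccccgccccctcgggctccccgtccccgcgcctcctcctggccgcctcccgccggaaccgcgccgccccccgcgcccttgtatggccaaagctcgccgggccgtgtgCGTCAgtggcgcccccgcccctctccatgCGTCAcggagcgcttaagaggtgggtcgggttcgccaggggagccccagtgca
Nr4a2 promoter: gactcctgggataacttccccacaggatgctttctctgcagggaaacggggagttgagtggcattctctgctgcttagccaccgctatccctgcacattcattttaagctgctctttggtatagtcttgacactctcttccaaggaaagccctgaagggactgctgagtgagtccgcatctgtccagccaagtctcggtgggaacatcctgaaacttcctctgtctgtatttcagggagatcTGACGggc
Ier2 promoter: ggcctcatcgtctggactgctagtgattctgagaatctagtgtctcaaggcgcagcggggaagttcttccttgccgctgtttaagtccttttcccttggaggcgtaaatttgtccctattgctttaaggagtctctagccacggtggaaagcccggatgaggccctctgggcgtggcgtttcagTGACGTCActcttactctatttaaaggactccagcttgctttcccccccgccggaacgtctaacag
The Egr1 stretch lies at chr18:26736828-26737077 (plus strand), Egr2 at chr20:21054442-21054691 (minus strand), Nr4a1 at chr7:134259888-134260137 (plus strand), Nr4a2 at chr3:62104888-62105137 (minus strand) and Ier2 at chr19:40399123-40399372 (plus strand).

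Egr1 held 2 CArG boxes, which began 105 and 83 bases before the start, and Egr2 held 1, which also began 83 bases before it. Both of these genes had a short form 66 bases before the start, downstream of that CArG box. Nr4a1 held no CArG box of the exact form searched and 4 short forms. Ier2 held the full cAMP response element at 66 bases, whose letters count as 2 overlapping short forms. Nr4a2 held 1 short form, 8 bases before the start. A further search for the EGR site, as GCGGGGGCG or GCGTGGGCG on either strand, found 1 in the Nr4a1 stretch, 73 bases before the start, and none in the other 4. Over 33469 rat promoters of the same length, 1.5% held a CArG box, 1.59% a full cAMP response element, 18.2% a short form and 2.85% an EGR site. These matches describe the letters only, and no binding was measured.

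EGR1 is a zinc finger factor that many cells make within minutes of a growth or stress signal. In the 6 control libraries Egr1 lay between 43.6 and 105 CPM (median 65.4). The 7 libraries at 4 h ranged from 776 to 4091 CPM (median 2044) and the 8 at 8 h from 206 to 2161 (median 554). Every library at these times lay above every control. At 12 h the range was 19.8 to 176 CPM (median 93.8), on both sides of the control range. It was 19.7 to 54.7 at 16 h (median 33.8), 17.1 to 76.2 at 20 h (median 37.2), 22.1 to 77.2 at 24 h (median 36.7) and 11.9 to 101 at 48 h (median 48.4). At 16 h, 6 of 8 libraries were below every control. Egr1 was 29.9-fold higher than the control at 4 h (log2 fold change 4.90 ± 0.54 SE, edgeR adjusted p = 7.9e-11) and 10.3-fold higher at 8 h (3.37 ± 0.49, edgeR adjusted p = 8.3e-08). At 12 h the log2 fold change was 0.49 ± 0.44 (edgeR adjusted p = 0.41). The value at 16 h, -1.004 ± 0.43, did not pass the test (edgeR adjusted p = 0.061), and those from 20 h to 48 h lay between -0.84 and -0.51 and were not called either. A test by DESeq2 did call the 16 h value (log2 fold change -1.01, adjusted p = 0.043). So did a filter at a mean of at least 10 reads, column total as a covariate, and 4 of the 60 fits that left out 1 library. Grouping by headings also called it. Most columns headed control match 4 h libraries, so that this call cannot bear on the 16 h value.

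EGR2 is known for its part in the myelin program of Schwann cells, in hindbrain patterning and in the restraint of T cells. Egr2 had 2.17 to 4.77 CPM in the controls (median 2.95), which is 31 to 139 reads. It reached 17.7 to 68.1 CPM at 4 h (median 36.6) and 6.25 to 27.5 at 8 h (median 12.6). No injured library of these times fell into the control range. From 12 h to 48 h the libraries spread from 1.6 to 13.7 CPM and overlapped the controls in every group. The level was 12.1-fold higher than the control at 4 h (3.60 ± 0.46 SE on the log2 scale, edgeR adjusted p = 4.9e-09) and 4.82-fold higher at 8 h (2.27 ± 0.43, edgeR adjusted p = 1.4e-05). At 12 h the value of 1.03 ± 0.42 lay at the threshold (edgeR adjusted p = 0.0503) and was not called. DESeq2 called it (1.04, adjusted p = 0.031), as did 7 of the other settings tried and 23 of the 60 fits that left out 1 library. The fit without 8h replicate 7 is counted in both. Most of the 23 left out a library of neither the 12 h nor the control group. In these the log2 fold change stayed at 1.03 or 1.04, and only the adjusted p crossed the threshold.

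EGR3 is another zinc finger factor of the family, induced in lymphocytes and neurons as well as in muscle spindles. Egr3 had few reads, 19 to 126 in a control library, and 1.22 to 4.32 CPM (median 1.77). At 4 h it ranged from 4.62 to 15.8 CPM (median 8.15), above every control. The 8 h libraries, 3.18 to 9.99 (median 4.13), overlapped the controls, with 3 of 8 above all of them. At 16 h it ranged from 0.45 to 1.24 CPM (median 0.788), with 7 of 8 libraries below every control. Egr3 was 4.2-fold higher than the control at 4 h (2.07 ± 0.45 SE on the log2 scale, edgeR adjusted p = 0.00013) and 2.5-fold higher at 8 h (1.32 ± 0.43, edgeR adjusted p = 0.0082). At 16 h it was 2.52-fold lower (-1.33 ± 0.43, edgeR adjusted p = 0.011). That call was lost without control replicate 6, the control with the highest Egr3 (-1.0, edgeR adjusted p = 0.076). The other times, from -0.59 to 0.62, were not called.

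NR4A1, also called Nur77, is an orphan nuclear receptor that muscle makes after exercise and adrenergic stimulation and that monocytes and T cells make on activation. Resting muscle held it at 202 to 299 CPM (median 226), with little spread between rats. At 4 h it ranged from 358 to 1250 CPM (median 777), above every control. At 8 h it ranged from 43.9 to 263 (median 153), with 7 of 8 libraries below every control. The 12 h libraries ranged from 38.1 to 203 CPM (median 71.0), again with 7 of 8 below. From 16 h no library reached the lowest control. The ranges were 23.2 to 74.3 CPM at 16 h (median 35.2), 52.6 to 180 at 20 h (median 99.2), 22.8 to 92.2 at 24 h (median 35.7) and 17.9 to 150 at 48 h (median 67.1).

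Nr4a1 was 3.38-fold higher than the control at 4 h (log2 fold change 1.76 ± 0.40 SE, edgeR adjusted p = 0.00022). At 8 h the difference of -0.63 ± 0.36 did not pass the test (edgeR adjusted p = 0.15). It was then 2.91-fold lower at 12 h (-1.54 ± 0.37, edgeR adjusted p = 0.00098) and 6.1-fold lower at 16 h (-2.61 ± 0.38, edgeR adjusted p = 2.8e-07). The level was 2.3-fold lower at 20 h (-1.20 ± 0.38, edgeR adjusted p = 0.020), 4.89-fold lower at 24 h (-2.29 ± 0.37, edgeR adjusted p = 1.9e-06) and 3.41-fold lower at 48 h (-1.77 ± 0.37, edgeR adjusted p = 9.3e-05). It was the only member called lower at 12 h and from 20 h to 48 h. Muscle fiber markers were lower in sum over the same hours, with a median of 115400 CPM in the controls, 74570 at 16 h and 72410 at 20 h, then 48160 at 24 h and 36820 after 48 h, and their part in the lower Nr4a1 was not tested. At 20 h, where Nr4a1 was less far below the control, the 4 measured red cell markers summed to 986 to 2025 CPM, against 96.9 to 444 at 16 h and 83.0 to 478 at 24 h, with no overlap. The sums in the controls (454 to 1267 CPM), at 4 h (420.5 to 2484) and at 8 h (279 to 1254) did overlap those at 20 h. Those at 12 h and 48 h did not. The part of these markers in the Nr4a1 levels was not tested. The 12 h library with Nr4a1 in the control range was replicate 6, at 203 CPM. It had the lowest summed neutrophil markers of its group, 21.2 CPM against a group median of 409. Its summed macrophage markers (236 CPM, group median 1405) and T cell, B cell and lymph node markers (12.0 CPM, group median 62.3) were the lowest too. Its column was not matched to a named library, and a link between these levels and Nr4a1 was not tested.

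NR4A2, or Nurr1, is best known from dopamine neurons and is induced in macrophages by inflammatory signals. Nr4a2 had 3.22 to 4.35 CPM in the controls (median 4.17), or 46 to 126 reads. Its 4 h libraries ranged from 5.6 to 24.4 CPM (median 9.52), above every control. The 8 h libraries, at 2.98 to 13.2 CPM (median 5.63), overlapped the controls. Nr4a2 was 3.05-fold higher than the control at 4 h (1.61 ± 0.30 SE on the log2 scale, edgeR adjusted p = 1.7e-05). At 8 h the value of 0.72 ± 0.29 had an edgeR adjusted p of 0.034 but lay under the required log2 change of 1 and was not called. From 12 h to 48 h the values lay between -0.52 and 0.00, and none was called.

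NR4A3, or NOR1, is the third receptor of the group and is induced in exercised muscle, in vessel wall cells and in activated leukocytes. Nr4a3 was near the floor in resting muscle, with 8 to 34 reads in a control library, or 0.6 to 1.34 CPM (median 1.09). At 4 h it had 1106 to 16504 reads, or 57.4 to 628 CPM (median 186). At 8 h it ranged from 14.96 to 83.7 CPM (median 34.02). The ranges were 2.01 to 9.91 CPM at 12 h (median 5.52), 2.15 to 8.1 at 16 h (median 3.47), 0.852 to 8.36 at 20 h (median 3.38), 1.79 to 13.7 at 24 h (median 2.94) and 0.818 to 3.69 at 48 h (median 1.19). Every library lay above every control from 4 h to 16 h and at 24 h, as did 6 of 7 at 20 h and 2 of 8 at 48 h.

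Against the control, Nr4a3 was 225-fold higher at 4 h (log2 fold change 7.81 ± 0.65 SE, edgeR adjusted p = 1.6e-14) and 35.4-fold higher at 8 h (5.14 ± 0.59, edgeR adjusted p = 1.8e-10). The later differences were smaller, at 2.43 ± 0.55 at 12 h (edgeR adjusted p = 0.00056), 1.95 ± 0.55 at 16 h (edgeR adjusted p = 0.0039), 1.78 ± 0.56 at 20 h (edgeR adjusted p = 0.020) and 2.11 ± 0.55 at 24 h (edgeR adjusted p = 0.0014). At 48 h the value of 0.42 ± 0.56 was not called (edgeR adjusted p = 0.58). The 20 h call was lost without 20h replicate 1, at 8.36 CPM the highest of its group (1.44, edgeR adjusted p = 0.080). With 8 to 34 reads behind each control value, the size of these folds rests on small counts in the control group.

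**Figure D2:**
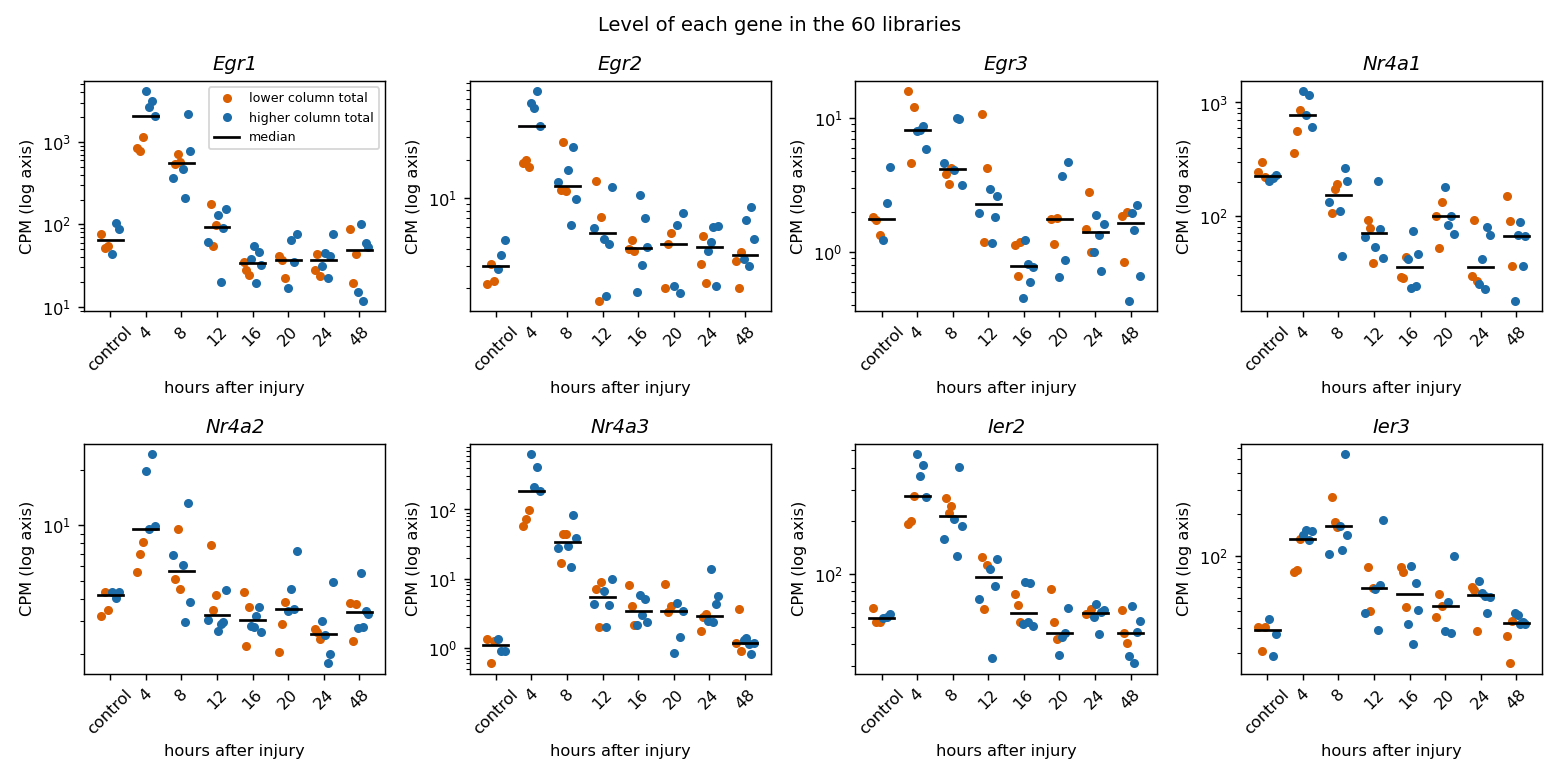
Each panel is 1 gene, with the group on the horizontal axis (control, then hours after injury) and CPM on a log vertical axis. Each point is 1 of the 60 libraries, coloured by whether its column total was at most 22212933 reads (lower) or at least 27140720 (higher), and the bar is the group median. Nr4a3 runs from 0.6 to 1.34 CPM in the controls to 57.4 to 628 at 4 h, and Nr4a1 lies under the controls in every library from 16 h.

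IER2 is a small nuclear protein of the early response, whose function is less well described than that of the EGR and NR4A factors. Ier2 was even among the controls, at 53.3 to 64.0 CPM (median 56.6). It ranged from 191 to 476 CPM at 4 h (median 275) and from 126 to 403 at 8 h (median 212), with no overlap with the controls. At 12 h it ranged from 33.4 to 124 (median 95.9), with 6 of 8 libraries above every control. The level was 5.46-fold higher than the control at 4 h (2.45 ± 0.24 SE on the log2 scale, edgeR adjusted p = 4.2e-12) and 3.96-fold higher at 8 h (1.99 ± 0.23, edgeR adjusted p = 4.5e-10). The value of 0.65 ± 0.22 at 12 h had an edgeR adjusted p of 0.020 but lay under the required log2 change of 1. From 16 h to 48 h the values lay between -0.26 and 0.22 and none was called.

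IER3, or IEX-1, is a stress-induced protein that acts on cell survival and on NF-κB signaling. Ier3 had 18.9 to 34.95 CPM in the controls (median 29.03). It ranged from 76.2 to 153 CPM at 4 h (median 132) and from 104 to 543 at 8 h (median 163), above every control. At 12 h, 7 of 8 libraries lay above the controls (29.2 to 183 CPM, median 58.5), and at 16 h 6 of 8 did (23.3 to 84.1, median 53.5). It was the one member whose median was higher at 8 h than at 4 h. The log2 fold change against the control was 2.18 ± 0.35 SE at 4 h (4.54-fold, edgeR adjusted p = 8.3e-07) and 2.94 ± 0.36 at 8 h (7.66-fold, edgeR adjusted p = 9.6e-10). The step from 4 h to 8 h, 0.75 ± 0.31, was not called (edgeR adjusted p = 0.082).

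Ier3 was still 2.55-fold higher at 12 h (1.35 ± 0.33 on the log2 scale, edgeR adjusted p = 0.0015) and 2.05-fold higher at 16 h (1.04 ± 0.33, edgeR adjusted p = 0.010). The 12 h call was lost without 12h replicate 8, at 183 CPM the highest of its group (0.96), and the 16 h call without any 1 of 16h replicates 1, 2 and 5 or control replicates 2 and 5 (0.93 to 0.97), each time because the log2 change fell under 1. At 24 h the value of 0.90 ± 0.33 passed the adjusted p alone (0.023, edgeR) and was not called, and at 48 h it was 0.21 ± 0.32.

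**Figure D3:**
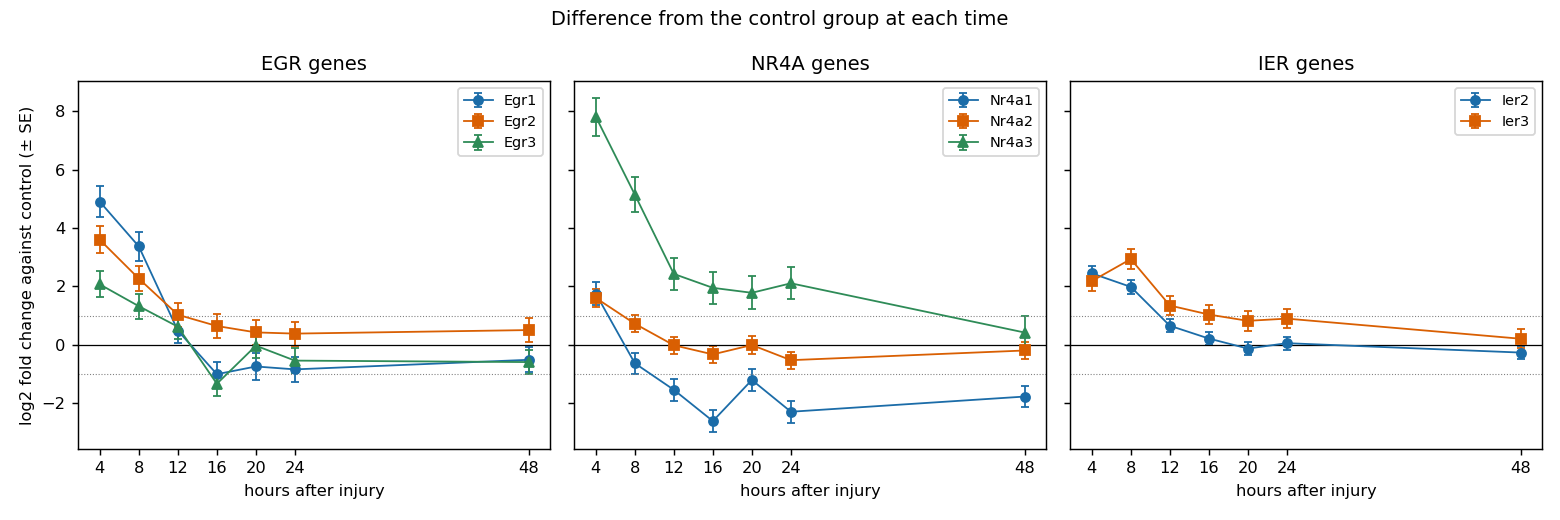
Each panel is a gene family, with hours after injury on the horizontal axis and the log2 fold change against the control on the vertical axis. Points are the fitted values, bars ± 1 SE, and dotted lines the required change of 1 in either direction. Nr4a3 starts at 7.81, Egr1 at 4.90 and Egr2 at 3.60 at 4 h, and Nr4a1 is at -2.61 at 16 h.

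A gene was called when its edgeR adjusted p over all 17155 genes was under 0.05 and its log2 fold change was over 1 or under -1. At 4 h 8 of 8 members were called higher, where 11.5% of all genes tested were, and 0 were called lower, against 8.37% of all genes. In every member each 4 h library lay above each control, which held for 12.9% of all genes. At 8 h 6 members were called higher (all but Nr4a1 and Nr4a2) and 0 lower, against 12.2% and 11.9% of all genes. The groups did not overlap in 5 of them, where 14.5% of all genes had every 8 h library above every control. The same control libraries enter each of these comparisons, so that the counts at the different times are not independent.

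By 12 h 2 members were called higher (Nr4a3 and Ier3) and 1 lower (Nr4a1), beside 8.45% and 4.21% of all genes. At 16 h 2 were called higher (Nr4a3 and Ier3) and 2 lower (Egr3 and Nr4a1), beside 7.43% and 6.24%. The counts were 1 higher (Nr4a3) and 1 lower (Nr4a1) at 20 h, beside 4.54% and 1.82%, and again at 24 h, beside 8.81% and 8.67%. At 48 h no member was called higher by edgeR, as also by DESeq2, and 1 was called lower (Nr4a1), beside 10.8% and 6.83% of all genes. In that comparison 1 of the 8 had an unadjusted p under 0.05. The median log2 fold change of the 8 genes was 2.32 at 4 h, 2.13 at 8 h, 0.64 at 12 h and between -0.23 and -0.02 from 16 h to 48 h, while that of all genes lay between -0.03 and 0.04 at all times. Across the 8 groups in 1 test every member differed (F test by edgeR, adjusted p from 3.5e-24 for Nr4a3 to 6.9e-10 for Nr4a2), as did 75.7% of all genes.

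From one time to the next, members mostly fell, and early. From 4 h to 8 h 4 members fell, namely Egr1 (-1.53 ± 0.42 SE on the log2 scale), Egr2 (-1.33 ± 0.38), Nr4a1 (-2.38 ± 0.36) and Nr4a3 (-2.67 ± 0.44), with edgeR adjusted p from 4e-06 to 0.0095. Of all genes 2.52% were called lower in that step. From 8 h to 12 h 5 members fell, beside 2.89% of all genes: Egr1 (-2.88 ± 0.43), Egr2 (-1.24 ± 0.37), Nr4a3 (-2.71 ± 0.44), Ier2 (-1.33 ± 0.21) and Ier3 (-1.59 ± 0.30), with edgeR adjusted p from 1.6e-06 to 0.011. Thus Ier2 and Ier3, not called in the first step, fell in the second. Nr4a1 and Nr4a2 stood at -0.91 and -0.74 in the second step, with edgeR adjusted p of 0.048 and 0.037, under the required change.

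Later steps held 1 call at most, and each such call was lost when certain single libraries were left out. From 12 h to 16 h Egr3 fell by 1.95 on the log2 scale (edgeR adjusted p = 0.026), the 1 member among 0.513% of all genes called lower. That call was lost without any 1 of 8 libraries, with edgeR adjusted p up to 0.091 without 12h replicate 4, and without 12h replicate 2, the highest, the change was -1.42. From 16 h to 20 h Nr4a1 rose by 1.41 ± 0.36 (edgeR adjusted p = 0.022), beside 0.857% of all genes called higher. Without 16h replicate 5, 16h replicate 7 or 20h replicate 4 that call was lost, with an edgeR adjusted p of 0.058, 0.052 and 0.086. The red cell markers given above also differed between these groups. From 20 h to 24 h no member was called by edgeR in either direction, beside 0.297% of all genes called higher and 1.51% lower. Nr4a1 was the 1 member with an unadjusted p under 0.05 in that step (-1.09 ± 0.35, edgeR adjusted p = 0.052), and DESeq2 called it lower. From 24 h to 48 h Nr4a3 fell by 1.69 (edgeR adjusted p = 0.017), beside 0.35% of all genes called lower, and that call was lost without 24h replicate 5, at 13.7 CPM the highest of its group (-1.19, edgeR adjusted p = 0.13).

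Other genes of the early response were read from lists of 63 genes tested: induced transcription factors and similar products, feedback and signal genes, secreted or adhesive products, upstream factors and the RXR nuclear receptor genes. At 4 h, beside 11.5% and 8.37% of all genes, 41 of the 63 were called higher and 1 lower, with a median log2 fold change of 2.45. At 8 h, beside 12.2% and 11.9%, 38 were higher and 0 lower, with a median of 2.05. At 48 h, beside 10.8% and 6.83%, 18 were higher and 3 lower, with a median of 0.41. That count was 31 higher and 0 lower with scaling by column totals, and 10 or 8 higher within the lower or the higher totals alone, so that it depends on the setting. The members' own counts of genes higher at these times were 8, 6 and 0, and the contrast with the wider lists was not tested.

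**Figure D4:**
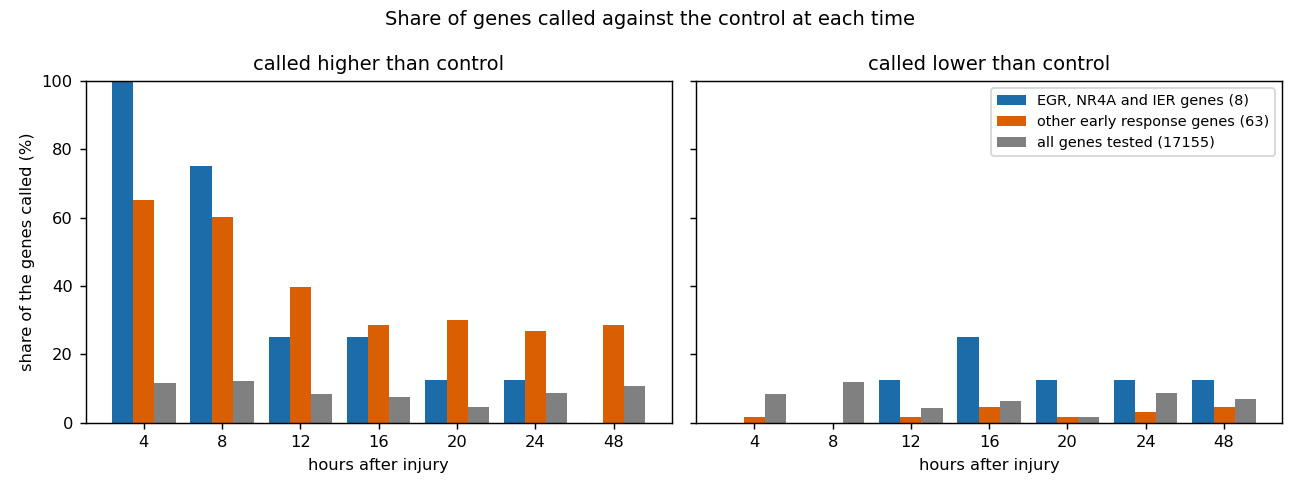
The horizontal axis gives hours after injury and the vertical axis the percentage of genes called higher (left) or lower (right) than the control, for the 8 EGR, NR4A and IER genes, the 63 other early response genes and all 17155 genes tested. Of the 8 members, 8 are called higher at 4 h and 0 at 48 h, where 11.5% and 10.8% of all genes are. At 48 h 18 of the 63 other early genes are called higher, a count that was 31 with scaling by column totals and 8 with the higher totals alone.

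Among the induced transcription factors 22 of 27 were higher at 4 h and 19 at 8 h, beside 11.5% and 12.2% of all genes. Among the secreted or adhesive products 6 of 7 and 7 of 7 were higher at those times. Vgf, which encodes a secreted peptide precursor, had no read in any control, 2 to 39 reads at 4 h and 43 to 223 at 8 h, which puts it at least 28.8-fold higher at 4 h and at least 155-fold higher at 8 h, measured against 3 reads over the control group. Egr4, the fourth EGR gene, also had no read in a control and 0 to 24 at 4 h, at least 21.5-fold higher by the same measure. Csrnp1, a nuclear protein of the early response, was 6.47 ± 0.51 SE higher on the log2 scale at 4 h, the largest fitted value among the other genes of these lists, and it cannot be ranked against the bounds for Vgf and Egr4. The smallest called changes at 4 h were those of Elk3, a partner of serum response factor that can act as a repressor (-1.40 ± 0.14), Zfp36l1, which speeds mRNA decay (1.03 ± 0.12), and Btg1, an antiproliferative factor (1.49 ± 0.26).

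Of the feedback and signal genes 12 of 18 were higher at 4 h and 11 at 8 h, beside 11.5% and 12.2% of all genes. At 8 h the largest changes after Vgf were those of the phosphatase gene Dusp2 (6.21 ± 0.69 SE, log2) and the cytokine signaling inhibitor Socs3 (5.91 ± 0.53), and the smallest called were Klf4 (1.12 ± 0.19), Ctgf (1.28 ± 0.34) and Gem (1.45 ± 0.25). At 48 h Vgf was called higher, and Thbs1 (3.13 ± 0.58) and Plaur (2.16 ± 0.39) had the largest changes of the other genes. Arc (-1.36 ± 0.30), the phosphatase gene Dusp1 (-1.31 ± 0.30) and Rxrg (-1.17 ± 0.32) were the 3 of 63 called lower, where 6.83% of all genes were. All these calls passed an edgeR adjusted p of 0.05. The upstream factors held 1 higher and 1 lower of 8 at 4 h, near the 11.5% and 8.37% of all genes, with a median of 0.27. The 3 RXR genes had a median of 0.06, with Rxra at 0.81 ± 0.20 and Rxrg at -0.35 ± 0.33, under the required change. The EGR corepressor gene Nab2 was higher at 4 h (2.51 ± 0.24), 8 h (2.49 ± 0.24) and 12 h (1.34 ± 0.23), while its relative Nab1 stood at 0.55 ± 0.12 at 4 h, under the required change. These 2 genes were named because their products bind EGR proteins, after their values were seen.

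At 4 h the level of several members went with the size of the library. The 3 libraries of lower total and the 4 of higher total did not overlap for 4 of the 8 members, where 14.8% of all genes showed this. Egr1 had 776 to 1157 CPM in the first set and 2044 to 4091 in the second. For Egr2 the ranges were 17.7 to 20.0 and 36.6 to 68.1 CPM, for Nr4a2 5.6 to 8.1 and 9.52 to 24.4, and for Nr4a3 57.4 to 99.5 and 186 to 628. In each case the libraries with more reads had the higher CPM. In no other group did the sets part for any member. Among the satellite cell markers at 4 h, Myod1, which makes up most of their sum, had 65.9 to 112 CPM in the lower set and 147.5 to 310.1 in the higher, and Myf5 also parted (1.92 to 4.29 and 4.37 to 9.19), whereas Pax7 overlapped (0.830 to 2.39 and 1.22 to 2.47). All 7 neutrophil markers overlapped. The macrophage markers Csf1r, C1qa and C1qb parted the other way, with C1qa at 25.9 to 80.6 CPM in the lower set and 18.3 to 20.7 in the higher. The part of any of these in the members' levels was not tested.

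With only the libraries of lower total in both groups, the 4 h log2 fold change was 3.94 for Egr1 and 6.16 for Nr4a3, and with only those of higher total 5.25 and 8.45. Nr4a1 stood at 1.23 (edgeR adjusted p = 0.091) and 2.16 in the same order, and Nr4a2 at 0.92 (edgeR adjusted p = 0.075) and 1.94, so that both lost their 4 h call in the lower set. The other 6 members kept theirs in both sets. Of the later calls, Egr3 at 8 h passed in neither set, at 1.20 in the lower and 1.29 in the higher beside 1.32 in all libraries (edgeR adjusted p = 0.14 and 0.065). Nr4a1 at 20 h passed in neither, at -1.43 and -1.0 beside -1.20 (edgeR adjusted p = 0.099 and 0.34). Nr4a3 at 24 h was lost in the lower set (1.24, edgeR adjusted p = 0.21), as was Egr3 at 16 h (-0.73, edgeR adjusted p = 0.46). In the higher set Nr4a3 at 20 h (1.31), Nr4a1 at 12 h (-1.30) and Ier3 at 12 h (1.46) and 16 h (0.86) did not pass, with edgeR adjusted p from 0.057 to 0.32, the 12 h value of Ier3 being larger than the 1.35 of all libraries. The signs stayed the same in all of these, and each set holds fewer libraries than the whole.

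Some libraries stood apart. At 8 h replicate 7 was the highest of its group for 6 of the 8 members, with Egr1 at 2161 CPM against 206 to 767 in the other 7. This library also had the highest summed neutrophil (2395 CPM), macrophage (2152 CPM) and satellite cell (385 CPM) markers of the group. Without it the 8 h log2 fold change of Egr1 was 2.89, and the 6 members called at 8 h were called still. Replicate 6 of 8 h was the lowest for 6 of the 8, and its summed T cell, B cell and lymph node markers reached 475 CPM against a group median of 23.7. Its Egr3 was the highest of the group, at 9.99 CPM, with replicate 7 next at 9.86. Such markers passed 300 CPM in 3 further libraries, 4h replicate 1 (982 CPM) and 12h replicates 4 (601) and 5 (378). Replicate 1 of 4 h was the lowest of its group for 5 members and the highest for Egr3 (15.8 CPM). At 12 h the highest Egr3 was in replicate 2 (10.7 CPM), which did not pass 300 CPM for these markers. A link between them and Egr3 was not tested. Left out together, these 4 libraries changed no call of a member against the control. Of them, 8h replicate 6 and 4h replicate 1 were not matched to a named library.

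Markers of arriving and resident cells moved over the same hours. The 7 neutrophil markers summed to 3.58 to 10.8 CPM in the controls, 289 to 777 at 4 h, 600 to 2395 at 8 h and 40.4 to 146 at 48 h. For the 8 macrophage markers the sums were 173 to 297 CPM in the controls, 514 to 1730 at 4 h, 711 to 2152 at 8 h and 1069 to 2813 at 48 h. By median the neutrophil sum was thus highest at 8 h and the macrophage sum at 48 h. Single markers differed. S100a9 and S100a8 made up most of the neutrophil sum, while Mmp8 had a higher median at 4 h (92.0 CPM) than at 8 h (52.4), and Fcgr3a was at 0.398 CPM in the controls, 0.325 at 4 h and 5.65 at 48 h. The early macrophage sum was mostly Lyz2, a gene that neutrophils express too, with a median of 80.6 CPM in the controls, 513 at 4 h and 1030.0 at 8 h. The median of Adgre1 was 3.70 CPM in the controls and 2.21 at 4 h, that of Csf1r 26.3 and 21.1, that of C1qa 35.6 and 20.7 and that of C1qb 28.2 and 24.2, while those of Cd163 (11.7 and 19.3), Mrc1 (24.6 and 41.05) and Cd68 (6.71 and 7.04) were higher at 4 h. The 5 endothelial markers in the table summed to 739 to 876 CPM in the controls and 349 to 575 at 4 h, and the fibroblast sum was 1945 to 2718 CPM in the controls against 1115 to 1542 at 4 h. No marker of these 4 lists had 0 reads in all libraries, and their part in the members' levels was not tested.

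Over the 60 libraries, among the 13466 genes that averaged 10 reads or more per library, those most like each member were named by Spearman correlation of log2 CPM. All libraries and their scaling are shared by the genes compared, and the values are a description. For Egr1 they were Cyr61 (correlation 0.877), a secreted matrix protein gene, Spry4 (0.868), an inhibitor of growth factor signaling, and Fos (0.86), a subunit of the AP-1 factor. For Egr2 they were the prostaglandin synthase gene Ptgs2 (0.872), the interleukin 1 antagonist Il1rn (0.868) and Il6 (0.865). Egr3 had Egr1 itself as its nearest gene (0.845), and Nr4a2 did too, at a lower value (0.755). For Nr4a1 they were Elmsan1 (0.866), Timp3 (0.854) and the potassium channel gene Kcnc1 (0.843). Nr4a3 had Enc1 (0.936), Map3k6 (0.932) and Itpkc (0.931), Ier2 had the AP-1 gene Junb (0.904), Has1 (0.886) and Thbd (0.884), and Ier3 had F2rl1 (0.91), Rrad (0.909) and Tfpi2 (0.908). Most picks belonged to 1 member only, with 22 distinct genes among the 24, and 7 of the 24 were shared with the Pearson correlation.

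Between the members themselves, the 28 pairs had a median Spearman correlation of 0.671 over the 60 libraries. Part of this is the shared course over time, since with each gene ranked after removal of its group's mean the median was 0.408 (range -0.273 to 0.779). Egr1 and Ier2 were the pair with the highest value within groups (0.779), and Nr4a1 and Ier3 that with the lowest (-0.273). Nr4a1 had within-group values of at most 0.164 with every other member. These within-group values also hold what sets libraries apart, such as their total.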

How the data were processed

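The deposited values are raw read counts by gene. The authors, according to their methods and processing notes, trimmed reads with Trimmomatic, aligned them to the rat genome rn6 with HISAT2 2.1.0 and counted unambiguous reads by strand with HTSeq 0.6.1. Columns were grouped by position. This was checked against the study's normalized values, scaled to each column, where a gene matched within 0.5 read plus rounding. No column was left unused.

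Genes with a total under 5 reads were left out. All 8 groups entered 1 quasi-likelihood fit (edgeR 4.0.16 in R 4.3.3, TMM scaling), with contrasts against the control and between neighbouring times, two-sided, adjusted by Benjamini-Hochberg over all genes. Calls needed an adjusted p under 0.05 and a log2 fold change over 1 or under -1, the study's thresholds. The SE is the size of the log2 fold change over the square root of F. The p-values measure the spread between libraries, each from a different rat. The fit was run on simulated counts that had the same dispersion (spread between libraries beyond counting) for every gene and no outlying libraries. That run cannot show how the fit does at the members' own spread. Libraries held 16372673 to 34931323 reads. Nr4a3, with few reads in the controls, had the largest SE of the members against the control at every time. Egr3, also with few reads there, had a smaller SE at 4 h than Egr1 (0.447 and 0.539).

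Alternatives were DESeq2 1.42.0, other scalings and filters, column total as a covariate, matched columns only (also with library number as a block), grouping by headings, and leaving out libraries. The text names all 8 members, the 3 largest and 3 smallest called changes of the other early genes, and the 3 genes most like each member among those with a mean of at least 10 reads. Members and lists were chosen with earlier results of these data known. Promoter sequences are from RefSeq (GRCr8), whose coordinates are not those of rn6. Figures were drawn with matplotlib 3.10.9, and other steps used pandas 2.3.3 with numpy 2.4.6 under Python 3.11.15 (scipy 1.17.1 for ranks).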

Additional observations from a re-analysis of the deposited data

Results flagged for a closer look

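In 3 of 64 sets of values (8 genes in 8 groups), 1 library lay far from the rest of its group, by a measure that chance meets in about 1 in 20 groups. Nr4a3 in 48h replicate 2 was at 3.69 CPM, with the next library at 1.38, a gap of 0.654 of the group's range where 0.526 is the limit for 8 libraries. Ier2 in 24h replicate 6 was the lowest of its group at 45.8 CPM, with the next at 57.1 (0.571 of the range). Ier3 in 48h replicate 2 was the lowest of its group at 16.8 CPM, with the next at 26.3 (0.537 of the range). The same library, 48h replicate 2, thus had the highest Nr4a3 and the lowest Ier3 of the 48 h group, and it was not among the columns checked against a named library.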

How the results depend on the processing

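The matched libraries carry numbers in their names, but each is a different rat. Same-numbered libraries of different groups deviated from their group means with a median correlation of 0.022 (124 pairs, 38 of them over 0.1), against -0.008 for other pairs, and were not taken as pairs. The number goes with the library total, since in every group numbers 1 to 3 are of the lower set and 5 and above of the higher, so that the block and the total cannot be told apart. With that number as a replicate block on the 49 matched columns, members lower than the control at 48 h were 0 (Nr4a1 at -1.16, edgeR adjusted p = 0.092, beside -1.29 and 0.038 on the same columns without the block), members lower in the steps to 16 h and 48 h were 2 and 0, and other early genes were 10 higher and 1 lower at 48 h and 2 lower at 20 h. Only 2 matched libraries are of 48 h. Leaving out the 4 libraries rich in T cell, B cell and lymph node markers (lymphocyte-rich) or 8h replicate 7, taking each set of totals alone and leaving out each library were chosen after seeing the data. Against the control, all calls of members at 4 h and 8 h, and those of Nr4a1 at later times, held in all 60 fits that left out 1 library. Leaving low counts unfiltered changed none of the 41 counts, and RLE scaling moved 2 by 1, to 3 members higher at 12 h and 39 other early genes higher at 8 h. DESeq2 called 2 members higher from 16 h to 20 h in place of 1, 2 lower from 12 h to 16 h in place of 1, and 1 lower from 20 h to 24 h in place of 0. A mean of at least 10 reads, and leaving out 8h replicate 7 or the lymphocyte-rich libraries, also gave 1 lower from 20 h to 24 h. From 12 h to 16 h those libraries' removal gave 2 and 0 lower. The matched columns alone gave 2 higher from 16 h to 20 h, 2 lower from 12 h to 16 h and 0 lower from 24 h to 48 h, and 2 and 1 other early genes lower at 20 h and 48 h in place of 1 and 3. At 20 h the filter and the covariate also gave 2 such genes lower. Scaling by column totals moved the median of all genes by 0.03 to 0.65 on the log2 scale. It gave 2, 2 and 1 members higher at 20 h, 24 h and 48 h, 1 lower at 16 h, 29 and 31 other early genes higher at 24 h and 48 h, and 0, 1, 0, 1 and 0 of them lower from 12 h to 48 h. Of the 24 genes most like a member, 7 were shared with the Pearson correlation.

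With the higher totals alone, members higher were 1, 1 and 0 at 12 h, 16 h and 20 h, members lower were 0 at 12 h and 20 h, the steps to 16 h and 20 h held 0, other early genes higher were 1 and 8 at 20 h and 48 h, and lower 0 at 12 h and 20 h. With the lower totals alone, members higher were 0 at 24 h, members lower 1 and 0 at 16 h and 20 h, the steps to 16 h, 20 h and 48 h held 0 and that to 8 h 1 in place of 4, other early genes higher were 12 and 10 at 20 h and 48 h, and lower 1 each at 8 h, 16 h and 48 h. These fits have fewer libraries.

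Grouped by the column headings, 0 members were higher at 4 h to 24 h, and 2, 6, 7, 8, 7, 8 and 8 were lower from 4 h to 48 h. The steps then held 0 higher at 20 h, 1 higher at 48 h, 0 lower at 8 h, 16 h and 48 h and 1 lower at 12 h. Of the other early genes 1 was higher at each time, and 5, 21, 41, 41, 42, 41 and 42 were lower. Signs are compared next only for members and times called by position, by heading or by both. The log2 fold changes that changed sign were, for Egr1 from 4 h to 12 h, -1.58, -2.27 and -5.24, for Egr2 from 4 h to 48 h, -1.13, -2.14, -2.77, -3.22, -3.05, -3.33 and -3.24, for Egr3 from 4 h to 12 h, -0.90, -1.12 and -2.94, for Nr4a1 at 4 h -2.09, for Nr4a2 at 4 h and 8 h -0.95 and -1.27, for Nr4a3 from 4 h to 48 h -2.25, -3.68, -5.64, -6.05, -5.85, -6.65 and -7.88, for Ier2 from 4 h to 16 h and at 24 h -0.58, -1.21, -2.09, -2.53 and -2.66, and for Ier3 at 12 h, 16 h, 24 h and 48 h -0.69, -1.48, -1.79 and -2.05. Of the 6 columns with a control heading, 5 match named libraries of 4 h after injury.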
